A study of Mus musculus with 12 samples.

Results

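The nuclear-encoded subunits of the respiratory chain and of ATP synthase were followed across mouse kidney with and without ischemia/reperfusion injury. The members were the protein-coding genes whose symbols belong to the subunit families of complex I (Nduf), complex II (Sdh), complex III (Uqcr and Cyc1), cytochrome c (Cycs), complex IV (Cox4 to Cox8) and complex V (Atp5), and whose mean over the 12 libraries reached 1 FPKM (fragments per kilobase of gene model, relative to the depth of the library). Of 56748 rows in the table, 107 matched by symbol. Among these, 17 were not protein-coding and 6 had a mean under 1 FPKM, which left 84 members among 12868 rows with a mean of at least 1 FPKM. Complex I had 36 members, complex II 4, complex III 9, cytochrome c 1, complex IV 17 and complex V 17. Ndufa4 and Ndufa4l2 were counted with complex IV, because the NDUFA4 protein is a subunit of cytochrome c oxidase. The members nearest the limit were Cox6a2, with a mean of 1.11 FPKM, and Ndufb2, with 2.29 FPKM. Just outside it lay Cox4i2, with 0.725 FPKM, and Cox8b, with 0.126 FPKM. The other 4 rows under the limit (Cox7b2, Cox8c, Ndufb11b and a second row named Atp5o) were at 0 in every library.

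Kidneys of male mice aged 8 to 12 weeks were sequenced in 4 groups of 3 libraries: wild type after sham surgery (WT sham), wild type after ischemia/reperfusion (WT IR), and the same 2 surgeries in mice with a conditional knockout of Krt20, a keratin gene, in renal proximal tubular cells (cKO sham and cKO IR). In IR both renal pedicles were clamped for 30 min and the mice were killed 24 h after release, whereas sham mice had the surgery without the clamps. All mice were anesthetized with pentobarbital. The promoter that drives the deletion in proximal tubular cells is not given in the sources used here. The labels do not say that the libraries of a group came from separate animals, so a p-value reflects how libraries of 1 group differ, which may be technical.

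The respiratory chain passes electrons from NADH (complex I) and succinate (complex II) through coenzyme Q, complex III and cytochrome c to oxygen at complex IV. The protons pumped on the way drive ATP synthase, complex V. Most subunits are encoded in the nucleus and imported, and the catalytic centers of complexes I, III and IV also need subunits encoded in mitochondrial DNA. The proximal tubule and the thick ascending limb reabsorb most of the filtered salt and depend on oxidative phosphorylation, and both are injured by ischemia.

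The libraries held 13187531 to 15962303 recovered reads, of which the members took 1.26% to 1.94%. Krt20 had at most 0.157 FPKM in sham libraries. After IR it had 59.9 to 84.0 FPKM in wild type and 28.2 to 47.0 FPKM in cKO, and the groups did not overlap, but the difference of -0.91 ± 0.17 on the log2 scale was not called (adjusted p = 0.132 in limma). The extraction text of the labels names another tissue than the kidney of the tissue field. Kidney markers were abundant in every library: the 10 proximal tubule markers summed to 4004 to 4569 FPKM in WT sham and 3759 to 4164 FPKM in cKO sham. WT IR 2 stood apart from the other 2 WT IR libraries on the first principal component of all tested genes (9.84 against 34.9 and 42.1, with sham libraries between -39.2 and -36.7), and the counts, sums and medians of the members in WT IR are also given without it.

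Members of all 5 complexes were called lower after IR in wild type kidney. A gene was called where its p-value in a linear model on log2(FPKM + 1), adjusted over all 12868 genes by the Benjamini-Hochberg method in limma, was under 0.05. In WT IR against WT sham, 41 of 84 members were called lower and 0 were called higher, where 19.5% of all tested genes were called lower and 22.6% were called higher. At an unadjusted p under 0.05, 51 members passed and all 51 were lower. The share of all tested genes at that limit is not given here, so the count has no background. The median difference of the members was -0.44 on the log2 scale, against 0.01 over all tested genes, and 81 members had a difference below 0. In 41 members the 3 WT IR libraries all lay under the 3 WT sham libraries, which was so for 24.9% of all tested genes. The FPKM of different libraries can also be put on a common total (TPM). On that scale the median of all tested genes moved up by 0.19 in wild type, so that 4534 genes were called higher and 1621 lower, against 2910 and 2514 on the deposited scale. Relative to the median of all genes the members stood at -0.43 on the TPM scale and at -0.44 as deposited, with 81 of 84 below it on both. On the TPM scale 29 members were called lower, where 12.6% of all tested genes were. In bulk kidney, fewer cells of a type and less RNA per cell cannot be told apart.

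The same direction was seen in cKO kidney. In cKO IR against cKO sham, 24 of 84 members were called lower and 0 were called higher, where 23.1% of all tested genes were called lower and 27.8% were called higher. The share of members called lower (28.6%) was thus near the background on the deposited scale. At an unadjusted p under 0.05, 35 members passed, 34 of them lower, again without a share of all tested genes to set beside it. The median difference was -0.31, against 0.02 over all tested genes, and 77 members were below 0. In 40 members the cKO IR libraries all lay under the cKO sham libraries, which held for 27.8% of all tested genes. On the TPM scale 33 members were called lower, where 21.2% of all tested genes were. The members stood at -0.34 relative to all genes on both scales. limma with voom weights on the recovered reads called 43 members lower in wild type and 26 in cKO, where it called 19.9% and 23.5% of all tested genes lower, and these included all 41 and all 24 of the calls above.

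The summed level of all members was 9354, 10765 and 10057 FPKM in WT sham and 7111, 9120 and 5968 FPKM in WT IR, and its mean fell by 26.4%. In cKO sham it was 9308, 9190 and 9691 FPKM, and in cKO IR it was 8610, 7314 and 6560 FPKM, and its mean fell by 20.2%. In both genotypes every IR library lay below every sham library of its genotype. Complex II had the largest fall of its sum: the mean fell by 31.6% in wild type and fell by 29.9% in cKO. The sum of complex V fell by 28.3% and fell by 24.9%. The sum of complex I fell by 23.8% and fell by 19.1%, and that of complex IV fell by 27.2% and fell by 16.6%. Complex III fell by 25.0% and fell by 17.6%. Cytochrome c was the exception, 5.0% and 23.4% higher in the mean. Without WT IR 2 the mean of all members fell by 35.0% in wild type, complex II by 39.8%, and cytochrome c was 4.79% lower in place of higher. These sums are descriptions without a test.

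**Figure D1:**
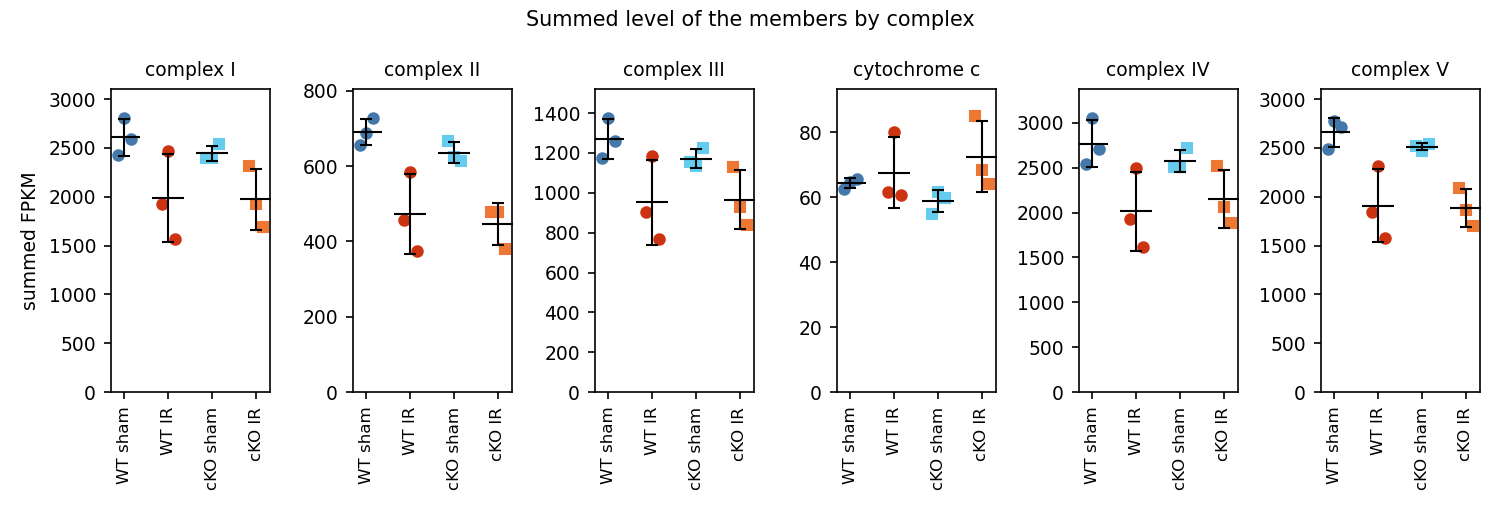
Summed FPKM of the members of each complex in each library (points, 3 per group), with the group mean and SD (black). In complexes I to V the IR means are below the sham means of both genotypes, while the single gene of cytochrome c is not lower after IR.

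WT IR 2 had the highest value of its group in 81 of 84 members, and WT IR 3 the lowest in 78. Among the cKO IR libraries, cKO IR 1 was highest in 75 members and cKO IR 3 lowest in 68. The proximal tubule markers were ordered the same way in WT IR, at 1567, 2820 and 1201 FPKM in WT IR 1, 2 and 3, but not in cKO IR, at 1341, 1465 and 1075 FPKM. Without WT IR 2, 64 members were called lower in wild type, where 22.6% of all tested genes were. Without WT IR 3, 21 members were, where 1954 of 12868 tested genes were. The 64 included all 41 of the calls with it, the median was -0.58 in place of -0.44, and no member was above 0. By complex, 26 of complex I, 4 of II, 7 of III, 13 of IV and 14 of V were then called. Of the markers, 8 of 10 for proximal tubule, 5 of 6 for thick ascending limb and distal convoluted tubule and 3 of 6 for collecting duct were called lower in WT IR, and 9, 6 and 5 in cKO IR. Of all tested genes, 19.5% and 23.1% were called lower. The 6 distal markers summed to 1302 to 1428 FPKM in WT sham and 604 to 1037 FPKM after IR, and in cKO to 1148 to 1721 FPKM and 456 to 721.7 FPKM. The 6 collecting duct markers gave 196.5 to 206.4 FPKM and, after IR, 105.7 to 161.8 FPKM in wild type, and in cKO 193 to 219.3 FPKM and 113.5 to 123.1 FPKM. No proximal tubule, distal or collecting duct marker was at 0 in any group. The part of these cell types in the fall of the members was not tested.

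Some markers of other cells were called as well. Of all tested genes, 22.6% were called higher and 19.5% lower in wild type, and 27.8% and 23.1% in cKO. Among macrophage, podocyte and endothelial markers few were called, and no change of those cells is read from them. The 4 neutrophil markers summed to 1.74 to 2.10 FPKM in WT sham, 9.98 to 47.9 FPKM in WT IR, 2.12 to 2.74 FPKM in cKO sham and 16.2 to 21.9 FPKM in cKO IR, and 3 of the 3 tested were called higher in both genotypes. The 4 stroma markers summed to 33.5 to 37.6 FPKM in WT sham, 49.0 to 158.8 FPKM in WT IR, 41.6 to 56.2 FPKM in cKO sham and 51.6 to 193.2 FPKM in cKO IR, with 2 and 1 called higher. Macrophage markers gave 1 higher and 1 lower of 6 in wild type and 2 higher and 1 lower in cKO. Podocyte and endothelial markers gave 1 lower each in both genotypes, of 4 and 5, and red cell markers 5 lower of 5 in wild type and 0 in cKO. Red cell markers summed to 281.3 to 905.9 FPKM in WT sham and 47.6 to 229.0 FPKM in WT IR. No marker of T, B and NK cells (sums of 0.522 to 3.92 FPKM), skeletal muscle or heart reached the filter. Of 4 fat markers, with sums of 0 to 8.63 FPKM, only Cfd did, and it was called higher in WT IR, but not without WT IR 2. Ucp1, which defines brown fat, was at 0 in every sham library. Their part in the fall of the members was not tested.

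Complex I had 16 of 36 members called lower in WT IR and 11 in cKO IR. These are 44.4% and 30.6%, where 19.5% and 23.1% of all tested genes were called lower. The 7 core subunits, which carry the flavin and the iron-sulfur clusters, gave 5 calls in wild type and 3 in cKO, with medians of -0.55 and -0.38. The 29 accessory subunits gave 11 and 8 calls, with medians of -0.37 and -0.30. No test compared core with accessory subunits.

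Ndufs1, the largest core subunit and a carrier of iron-sulfur clusters (ENSMUSG00000025968, chromosome 1, 63182755 to 63215992, minus strand, as deposited, with a build that was not established), had 39.6, 38.3 and 44.8 FPKM in WT sham and 22.6, 29.0 and 18.9 FPKM in WT IR. It had 39.2, 35.4 and 37.6 FPKM in cKO sham and 21.7, 23.8 and 17.6 FPKM in cKO IR. Neither genotype's groups overlapped, and the values of the genotypes were alike within each surgery. The log2 difference was -0.79 ± 0.15 (SE; adjusted p = 0.00189) in wild type and -0.81 ± 0.15 (adjusted p = 0.0011) in cKO, the smallest adjusted p of all members in both.

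Ndufv3, an accessory subunit of the NADH-binding module, had the largest difference of complex I in wild type. It had 32.4, 36.9 and 31.6 FPKM in WT sham and 15.6, 22.4 and 14.0 FPKM in WT IR (log2 difference -0.94 ± 0.19, adjusted p = 0.00331). In cKO it went from 23.7, 26.3 and 32.1 FPKM to 20.4, 13.0 and 14.0 FPKM (log2 difference -0.77 ± 0.19, adjusted p = 0.00721). Its cKO sham 1 and cKO sham 2 lay below every WT sham library, while cKO sham 3 lay above WT sham 3. The difference of cKO sham against WT sham was not called (-0.30 ± 0.19, adjusted p = 0.667). Ndufb2, an accessory subunit of the membrane arm, is listed at only 2.58 to 3.39 FPKM in WT sham and 1.61 to 1.76 FPKM in WT IR, without overlap (log2 difference -0.55 ± 0.11, adjusted p = 0.00282).

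Ndufb6, an accessory subunit of the membrane arm, was not called. It had 113, 125 and 114 FPKM in WT sham, 107, 121 and 88.8 FPKM in WT IR, 112, 105 and 107 FPKM in cKO sham and 147, 119 and 93.6 FPKM in cKO IR, so that groups overlapped in both genotypes. Its log2 differences were -0.16 ± 0.15 and 0.12 ± 0.15. Ndufa1, an accessory subunit encoded on the X chromosome, was called in wild type (148, 209 and 168 against 120, 141 and 97.7 FPKM, adjusted p = 0.0345) but not without WT sham 2 (adjusted p = 0.129), the highest library. In cKO it had 144, 169 and 181 FPKM before and 157, 110 and 112 FPKM after IR, with overlap (-0.39 ± 0.19, adjusted p = 0.101).

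The value of Ndufa12 is uncertain. It had 17.1, 14.5 and 15.4 FPKM in WT sham, 12.5, 57.7 and 12.2 FPKM in WT IR, 48.3, 33.7 and 14.2 FPKM in cKO sham and 15.6, 38.7 and 10.8 FPKM in cKO IR. Across the 12 libraries, 4 had 33.7 to 57.7 FPKM and 8 had 10.8 to 17.1 FPKM, a split that follows neither genotype nor surgery. The 4 were WT IR 2, cKO sham 1, cKO sham 2 and cKO IR 2. The processed pseudogene Ndufa12-ps, a copy whose reads can be hard to tell from those of the gene, had 37.1 to 59.4 FPKM in those 4 libraries and 61.6 to 102.9 FPKM in the other 8. Ndufa12 took 68.9% to 84.7% of the reads of the pair in the 4 libraries and 36.5% to 46.4% in the 8. The reads of both rows together were 75.9 to 108.2 per 1000000 recovered reads in the 4 and 45.3 to 65.97 in the 8. How the counting divided reads between the copies is not given in the sources used here, so no change of Ndufa12, which was singled out after its values were seen, is read from them.

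**Figure D2:**
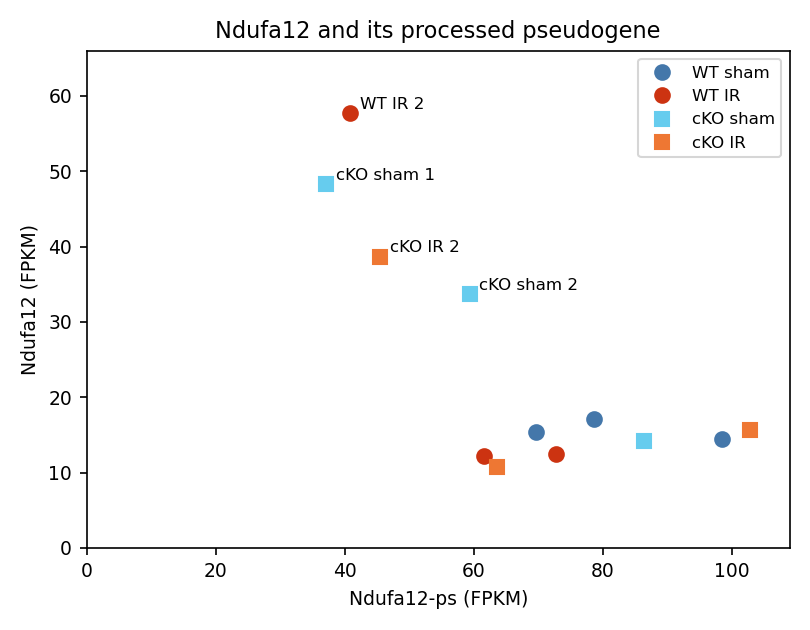
FPKM of Ndufa12 against FPKM of its processed pseudogene Ndufa12-ps in the 12 libraries (color and shape, group). The 4 labelled libraries have 33.7 to 57.7 FPKM of Ndufa12 and the other 8 have 10.8 to 17.1 FPKM, and both sets hold libraries of both genotypes.

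In complex II, 3 of 4 subunits were called lower in both genotypes. Sdha, the flavoprotein that oxidizes succinate (ENSMUSG00000021577, chromosome 13, 74470373 to 74498399, minus strand, as deposited), had 244, 257 and 275 FPKM in WT sham and 155, 194 and 110 FPKM in WT IR. It had 246, 227 and 228 FPKM in cKO sham and 142, 150 and 116 FPKM in cKO IR. The groups did not overlap in either genotype, and the log2 difference was -0.79 ± 0.18 in both, with adjusted p = 0.00477 in wild type and 0.00365 in cKO. Sdhb, the iron-sulfur subunit, went from 127, 137 and 138 FPKM to 74.3, 106 and 73.3 FPKM in wild type (-0.68 ± 0.15, adjusted p = 0.0053). In cKO it went from 121, 115 and 120 FPKM to 86.2, 83.5 and 62.0 FPKM (-0.63 ± 0.15, adjusted p = 0.00612).

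The anchors that hold complex II in the membrane had smaller differences. Sdhc had 101, 107 and 103 FPKM in WT sham and 68.3, 90.1 and 55.2 FPKM in WT IR, and fell by 0.56 ± 0.15 on the log2 scale (adjusted p = 0.0133). Its fall in cKO, from 97.8, 90.5 and 87.8 FPKM to 75.8, 72.9 and 60.4 FPKM, had an adjusted p of 0.0479 that rose to 0.153 without cKO IR 3. Sdhd had 184, 189 and 212 FPKM in WT sham, 159, 196 and 137 FPKM in WT IR, 203, 192 and 179 FPKM in cKO sham and 175, 170 and 143 FPKM in cKO IR. Its log2 differences of -0.26 ± 0.13 (adjusted p = 0.143) and -0.24 ± 0.13 (adjusted p = 0.166) were not called. The difference between Sdha and Sdhd was not tested.

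Promoters of respiratory chain genes are known for sites of NRF1, of the ETS factor GABPA, of YY1 and of the estrogen-related receptors. The RefSeq promoter table (GRCm38.p6, 250 bases before to 50 after the start) matched 68 of 84 members by symbol. For 5 of them with more than 1 start, the first one listed was used. The exact letters of 4 motifs were searched on both strands of each window. GCATGCGC (NRF1) was in 11 of 68 member promoters (16.2%) and in 3.61% of 17492 promoters of protein-coding genes. CCGGAAG (ETS) was in 16 (23.5%, against 11.9%), AAGATGGC (YY1) in 9 (13.2%, against 3.22%) and CAAGGTCA (the estrogen-related receptors) in 4 (5.88%, against 1.34%). A match is a description of letters only. The median difference in WT IR was -0.39 with and -0.45 without the NRF1 motif, -0.45 and -0.41 for ETS, -0.40 and -0.44 for YY1 and -0.33 and -0.45 for the receptor motif. Of the members with a motif, 3 of 11 (NRF1), 8 of 16 (ETS), 4 of 9 (YY1) and 0 of 4 (receptor motif) were called lower in WT IR. Of those without it, 30 of 57, 25 of 52, 29 of 59 and 33 of 64 were called, and these differences were not tested.

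The promoters of Sdha, Sdhb, Sdhd and Cycs are given as examples, and Sdhc of complex II had no match by symbol. Whether a motif bears on the fall of a member was not tested. The 150 bases before the start are printed from 5′ to 3′ in the direction of the gene, with the motif in capitals, for Sdha (chr13:74350241-74350390, minus strand), Sdhb (chr4:140961121-140961270, plus strand), Sdhd (chr9:50603850-50603999, minus strand) and Cycs (chr6:50566570-50566719, minus strand).
Sdha: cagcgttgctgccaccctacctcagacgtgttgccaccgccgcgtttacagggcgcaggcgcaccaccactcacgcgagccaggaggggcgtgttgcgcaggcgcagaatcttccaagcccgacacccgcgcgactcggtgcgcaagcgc
Sdhb: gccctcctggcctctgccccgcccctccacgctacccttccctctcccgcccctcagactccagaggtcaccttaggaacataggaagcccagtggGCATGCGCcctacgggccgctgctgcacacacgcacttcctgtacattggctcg
Sdhd: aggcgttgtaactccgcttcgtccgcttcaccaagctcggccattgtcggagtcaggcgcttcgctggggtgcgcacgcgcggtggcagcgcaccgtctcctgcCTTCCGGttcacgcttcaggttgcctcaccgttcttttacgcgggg
Cycs: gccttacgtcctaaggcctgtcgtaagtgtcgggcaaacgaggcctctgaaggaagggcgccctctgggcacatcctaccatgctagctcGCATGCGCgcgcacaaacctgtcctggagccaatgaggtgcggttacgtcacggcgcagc
The NRF1 motif begins 54 bases before the start of Sdhb, which was called lower in both genotypes, and 60 bases before the start of Cycs, which was lower in neither. In Sdhd the ETS motif lies on the other strand, 46 bases before the start. None of the 4 motifs was in the window of Sdha, the member of complex II with the largest fall. The window of Sdhb also holds an ETS motif and that of Sdhd a receptor motif, both outside the bases printed.

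In complex III, 4 of 9 members were called lower in WT IR and 3 in cKO IR. These are 44.4% and 33.3%, where 19.5% and 23.1% of all tested genes were called lower. Uqcrc2, a core protein that stabilizes the dimer, had 154, 154 and 175 FPKM in WT sham, 106, 131 and 94.4 FPKM in WT IR, 152, 144 and 153 FPKM in cKO sham and 107, 112 and 91.0 FPKM in cKO IR. Its groups did not overlap and its log2 differences were -0.55 ± 0.12 (adjusted p = 0.00513) and -0.53 ± 0.12 (adjusted p = 0.00461). Uqcrfs1, the Rieske iron-sulfur protein, is the most abundant member of the complex. It fell from 237, 244 and 250 FPKM to 157, 211 and 140 FPKM in wild type (-0.54 ± 0.15, adjusted p = 0.0151, and 0.0564 without WT IR 3). In cKO it fell from 233, 217 and 220 FPKM to 196, 166 and 142 FPKM (-0.42 ± 0.15, adjusted p = 0.0386, and 0.133 without cKO IR 3).

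The small subunits of complex III were less even. Uqcr11 had the largest difference of the complex in wild type, with 146, 194 and 144 FPKM in WT sham and 99.7, 127 and 69.5 FPKM in WT IR (-0.73 ± 0.21, adjusted p = 0.0168, and 0.0673 without WT sham 2). In cKO it had 126, 135 and 145 FPKM before and 126, 94.4 and 93.5 FPKM after IR (-0.38 ± 0.21, adjusted p = 0.155). Uqcr10 had 163, 224 and 167 FPKM in WT sham and 154, 206 and 133 FPKM in WT IR. In cKO it had 180, 174 and 199.6 FPKM before and 218, 160.2 and 148 FPKM after IR, so that groups overlapped in both genotypes (-0.18 ± 0.19 and -0.09 ± 0.19). Cyc1, the cytochrome c1 that hands electrons to cytochrome c, had differences of -0.34 ± 0.14 (adjusted p = 0.0722) and -0.14 ± 0.14 (adjusted p = 0.416).

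Cycs, the mobile electron carrier that also triggers apoptosis when it leaves the mitochondria, was the only member with a difference above 0 in both genotypes on the deposited scale (1 of 7 on the TPM scale). It had 62.7, 64.7 and 65.8 FPKM in WT sham and 61.7, 80.2 and 60.9 FPKM in WT IR, with overlap (0.06 ± 0.13, adjusted p = 0.739). In cKO sham it had 54.9, 61.5 and 59.9 FPKM and in cKO IR 85.0, 68.5 and 64.1 FPKM. Those groups did not overlap, but the difference of 0.29 ± 0.13 was not called (adjusted p = 0.0769). The call depends on the scaling: on the TPM scale Cycs was called higher in both genotypes (0.27 with adjusted p = 0.0249 in wild type and 0.34 with adjusted p = 0.0074 in cKO). Without WT IR 2 its difference in wild type was -0.07 (adjusted p = 0.64). Scaled to the sum of the recovered reads it was called in cKO (adjusted p = 0.0136) and not in wild type (adjusted p = 0.112). The interval of the difference between genotypes in the IR effect ran from -0.16 to 0.62 (95% confidence).

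**Figure D3:**
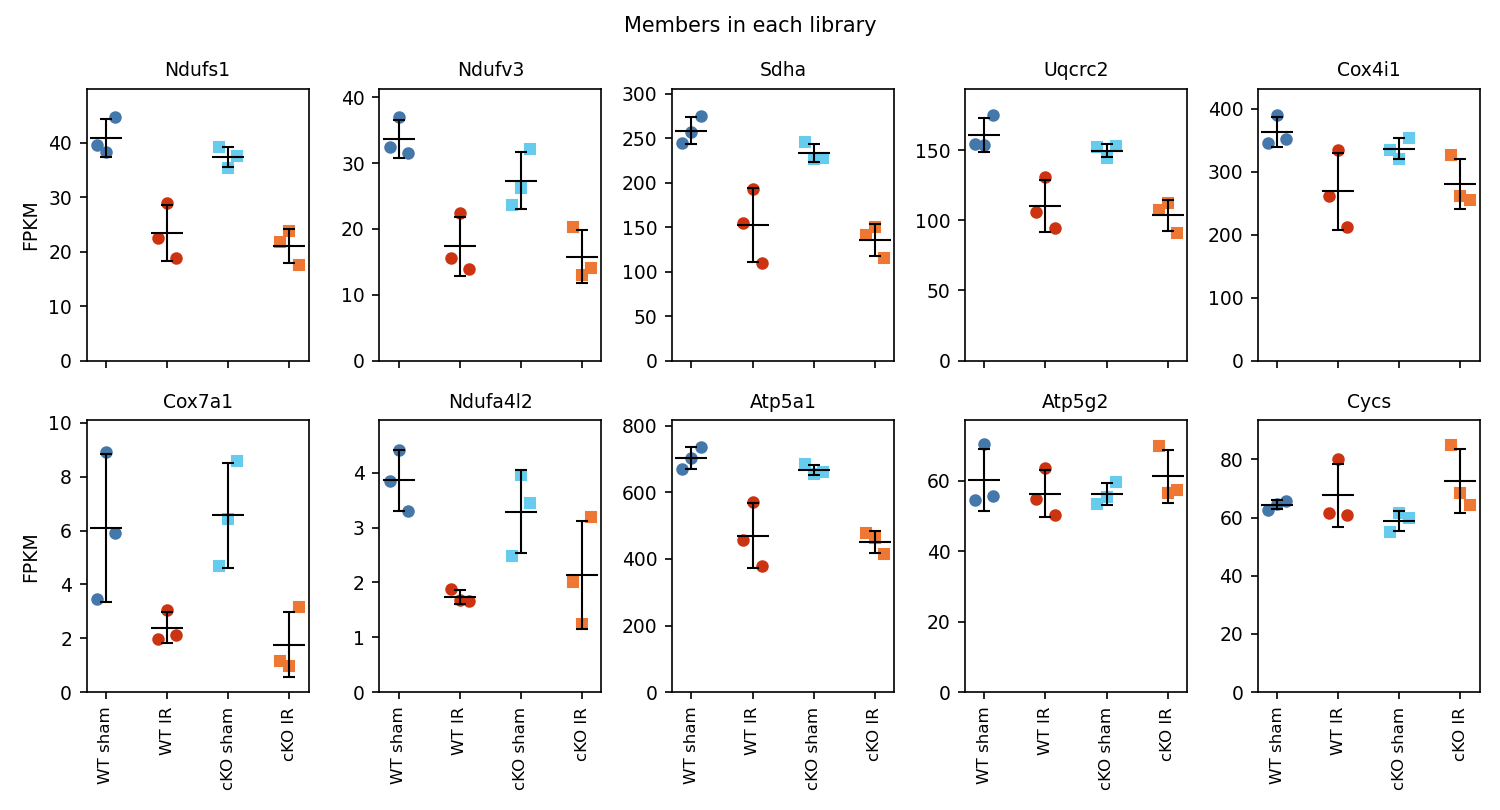
FPKM of 10 members in each library (points, 3 per group), with the group mean and SD (black). Ndufs1, Ndufv3, Sdha, Uqcrc2 and Atp5a1 are lower in every IR library than in any sham library of the same genotype, while Atp5g2 and Cycs are not lower after IR in cKO.

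In complex IV, 10 of 17 members were called lower in WT IR and 3 in cKO IR. These are 58.8% and 17.6%, where 19.5% and 23.1% of all tested genes were called lower. The share in cKO was thus under that of all genes. Cox4i1, the general isoform of the largest nuclear-encoded subunit, had 345, 390 and 352 FPKM in WT sham and 261, 334 and 211 FPKM in WT IR (-0.45 ± 0.16, adjusted p = 0.0389). That call was lost in 9 of the 12 fits that left out 1 library, with an adjusted p of up to 0.135 without WT IR 3. In cKO it had 335, 320 and 354 FPKM before and 326, 261 and 255 FPKM after IR, with overlap (-0.27 ± 0.16, adjusted p = 0.18). Cox8a, the second most abundant member of the complex, had 468, 578 and 503 FPKM in WT sham and 339, 450 and 267 FPKM in WT IR (-0.58 ± 0.18, adjusted p = 0.0265, and 0.094 without WT IR 3). In cKO it was not called.

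Cox6a1, the general isoform of subunit VIa, was the most abundant member of complex IV, with 601, 706 and 640 FPKM in WT sham and 482, 601 and 376 FPKM in WT IR. It just missed the threshold (-0.44 ± 0.17, adjusted p = 0.0575), and in cKO its groups overlapped (-0.19 ± 0.17). Cox6b1 fell in wild type from 254, 309.5 and 290.5 FPKM to 197, 244 and 183 FPKM (-0.45 ± 0.14, adjusted p = 0.027, and 0.0936 without WT sham 2) and was not called in cKO, with 242, 261 and 284 FPKM before and 258, 214 and 188 FPKM after IR (-0.26 ± 0.14). Cox7a2 had 168, 195 and 177 FPKM in WT sham and 115, 172 and 117 FPKM in WT IR, with overlap, and 166, 175 and 180.5 against 169, 139 and 127 FPKM in cKO. Its differences were -0.43 ± 0.16 (adjusted p = 0.0446, and 0.157 without WT IR 1) and -0.27 ± 0.16. Ndufa4 had 166, 204 and 183 FPKM in WT sham and 109.5, 165 and 105 FPKM in WT IR, without overlap, and 150.1, 155 and 182 against 151, 126 and 121 FPKM in cKO, with overlap. Its differences were -0.56 ± 0.17 (adjusted p = 0.0211, and 0.0812 without WT IR 1) and -0.29 ± 0.17. Cox7a2l, which joins complexes III and IV in supercomplexes, had 71.0, 68.6 and 69.0 FPKM in WT sham, 60.3, 66.04 and 60.9 FPKM in WT IR, 76.2, 65.4 and 71.8 FPKM in cKO sham and 59.2, 65.9 and 56.2 FPKM in cKO IR. It had differences of -0.15 ± 0.08 and -0.23 ± 0.08, and its call in cKO (adjusted p = 0.038) rose to 0.14 without cKO sham 1.

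The isoforms known from heart and skeletal muscle were scarce. Cox7a1 had the largest fall of all members in both genotypes, from 3.46, 8.93 and 5.92 FPKM in WT sham to 1.98, 3.04 and 2.14 FPKM in WT IR, and from 4.69, 6.43 and 8.59 FPKM in cKO sham to 1.17, 0.966 and 3.15 FPKM in cKO IR. Its log2 differences were -1.01 ± 0.34 (adjusted p = 0.033, and 0.127 without WT sham 2) and -1.51 ± 0.34 (adjusted p = 0.00357), and the mean fell by 60.9% and by 73.2%. These values rest on 8 to 69 reads a library. Cox6a2 had 1.31, 1.43 and 1.11 FPKM in WT sham, 0.865, 2.69 and 1.29 FPKM in WT IR, 1.36, 1.62 and 0.504 FPKM in cKO sham and 0.46, 0.285 and 0.381 FPKM in cKO IR, from 3 to 27 reads a library. The 3 skeletal muscle markers together had 0 to 0.679 FPKM and the 2 heart markers 0.248 to 1.53 FPKM over the 12 libraries.

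Other alternative isoforms behaved differently from each other. Ndufa4l2, a hypoxia-inducible relative of Ndufa4, fell in wild type from 3.85, 4.42 and 3.31 FPKM to 1.88, 1.67 and 1.66 FPKM without overlap (-0.82 ± 0.21, adjusted p = 0.00854). In cKO it had 2.47, 3.96 and 3.45 FPKM before and 2.0, 1.24 and 3.19 FPKM after IR, with overlap (-0.48 ± 0.21, adjusted p = 0.0727). The values of Ndufa4l2 rest on 21 to 70 reads a library. Cox6b2, known from testis, had 2.11 to 3.62 FPKM in WT sham and 2.31 to 3.30 FPKM in WT IR, and its differences were -0.07 ± 0.17 and 0.06 ± 0.17. Cox5b and its copy Cox5b-ps, which is a member by its protein-coding label, may share reads. The reads of both together were 175 ± 23 per 1000000 recovered reads in wild type after sham surgery and 131 ± 24 after IR, and in cKO 161 ± 3.6 and 138 ± 20 (mean ± SD, n = 3).

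In complex V, 8 of 17 members were called lower in WT IR and 4 in cKO IR, and all of them belong to the soluble F1 head or the stalk. These are 47.1% and 23.5%, where 19.5% and 23.1% of all tested genes were called lower. The share in cKO was thus near that of all genes. Of the 5 subunits of F1, 4 were called in wild type and 3 in cKO. Atp5a1, the alpha subunit, had 670, 703 and 737 FPKM in WT sham, 458, 572 and 380 FPKM in WT IR, 685, 654 and 662 FPKM in cKO sham and 477, 462 and 414 FPKM in cKO IR. Its groups did not overlap and its log2 differences were -0.60 ± 0.14 (adjusted p = 0.00561) and -0.57 ± 0.14 (adjusted p = 0.00581). Atp5b, the catalytic beta subunit and the most abundant of all 84 members, fell from 662, 706 and 725 FPKM to 477, 566 and 388 FPKM in wild type, and from 668, 655 and 676 FPKM to 520, 482 and 453 FPKM in cKO (-0.56 ± 0.13 and -0.46 ± 0.13, adjusted p = 0.00582 and 0.0129).

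The 4 subunits of the peripheral stalk, which holds the head still, gave 4 calls in wild type and 1 in cKO. Atp5o, the subunit that ties the stalk to the head, had 60.1, 58.5 and 61.0 FPKM in WT sham and 41.8, 54.1 and 39.3 FPKM in WT IR (-0.42 ± 0.11, adjusted p = 0.0101). In cKO it had 51.0, 53.1 and 54.8 FPKM before and 47.3, 43.4 and 42.6 FPKM after IR (-0.25 ± 0.11, adjusted p = 0.0737). None of the 3 genes of the proton-conducting c-ring or of the 5 small membrane subunits was called in either genotype. When WT IR 2 was left out, 2 of the 3 and 3 of the 5 were called lower in wild type. Their medians were -0.35 and -0.36 in wild type and -0.35 and -0.32 in cKO, against -0.50 and -0.46 for F1, and this difference was not tested. The c-ring gene Atp5g2 had differences of -0.09 ± 0.13 and 0.12 ± 0.13. Atp5k, the membrane subunit e, had 30.1, 54.6 and 27.7 FPKM in WT sham and 26.1, 33.2 and 19.6 FPKM in WT IR, with overlap, and 30.1, 38.1 and 38.9 against 27.1, 20.8 and 22.8 FPKM in cKO, without overlap (-0.58 ± 0.25, adjusted p = 0.078). Atpif1, the inhibitor of ATP synthase and not a member, was not called (-0.29 ± 0.14 and -0.18 ± 0.14).

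**Figure D4:**
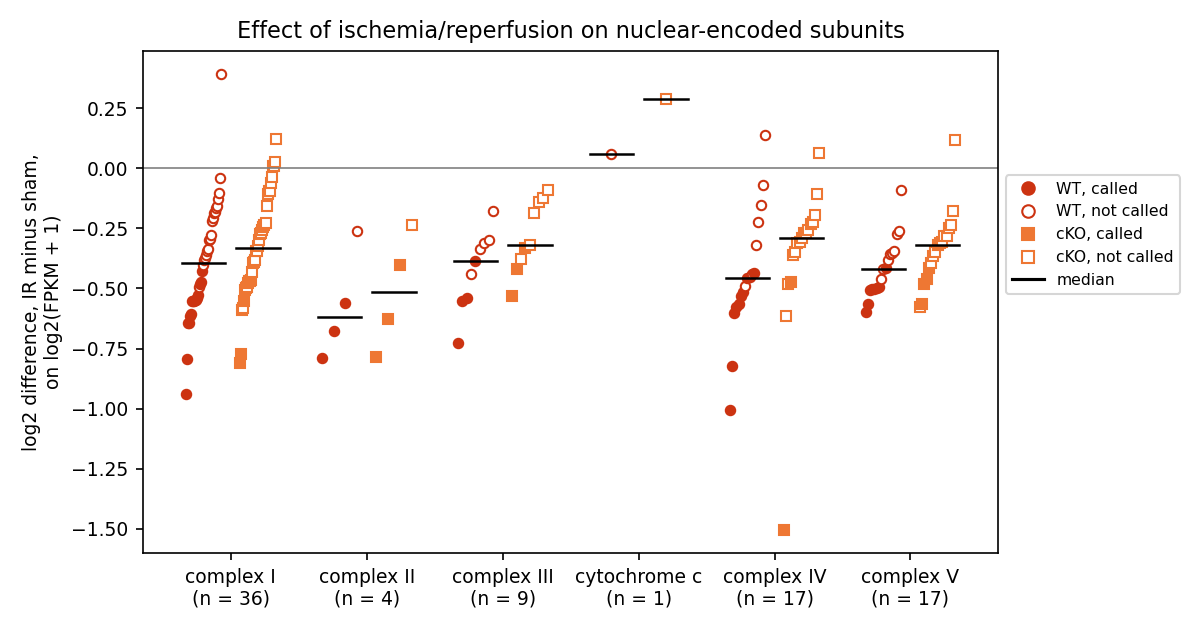
Log2 difference of IR against sham on log2(FPKM + 1) for each of the 84 members, by complex, in wild type (circles) and cKO (squares), with the median as a line and called members filled. All filled symbols are below 0, with 41 in wild type and 24 in cKO, and Cycs is above 0 in both genotypes, on the TPM scale as well.

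The share of members called also differed with the length of the gene model. Of the 31 members with a model of 2000 bases or more, 20 (64.5%) were called in wild type and 15 (48.4%) in cKO, where 20.1% and 24.2% of all tested genes of that length were called lower. Of the 20 members under 1000 bases, 8 (40%) and 3 (15%) were called, where it was 13.9% and 14.3% of all tested genes of that length. The median differences were -0.49 and -0.36 for the long models, -0.38 and -0.30 for the middle ones and -0.42 and -0.26 for the short ones. The median SE was 0.15, 0.17 and 0.18 in that order. WT sham 2 exceeded the mean of the other WT sham libraries by a median of 0.27 (log2) in the short members and by 0.06 in the long ones, and over all tested genes by 0.10 in the short and by -0.01 in the long. WT sham 2 was the highest WT sham library in 60 of 84 members. Without it 22 members were called lower in wild type, where 2023 of 12868 tested genes were.

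In all, 22 members were called lower in both genotypes, which is 53.7% of the wild type calls and 91.7% of the cKO calls. Another 19 were called in wild type and not in cKO, 2 (Ndufb9 and Cox7a2l) in cKO and not in wild type, and 41 in neither. Under each of 21 alternative fits in which they were tested, 19 members kept their call in wild type and 13 in cKO. Those common to both were 11: Ndufs1, Ndufs8, Ndufv3, Ndufa9, Ndufa10, Ndufb5 and Ndufc2 of complex I, Sdha and Sdhb, Uqcrc2 and Atp5a1. No member of complex IV was among them.

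The genotypes were then compared directly, and no member passed. In the difference of the IR effect between genotypes (interaction), 0 of 84 members were called, where limma called 0.295% of all tested genes higher and 0.583% lower. At an unadjusted p under 0.05 also 0 members passed, and voom called 0. Without WT IR 2 the median interaction was 0.25 and that of cKO IR against WT IR 0.16, and again 0 members were called. The log2 difference of IR against sham was lower in wild type than in cKO in 69 of 84 members, with a median interaction of 0.12. On the TPM scale this held in only 32, with a median of -0.04. Relative to the median of all genes these medians were 0.09 and 0.08. The 95% interval of the interaction reached a median of 0.49 to either side on the log2 scale and lay within 1 for 80 members and within 0.5 for 16, so that smaller differences between genotypes were not detectable. In cKO IR against WT IR, limma called 0 members, as it did over all tested genes (0% higher and 0% lower), voom called 0, and the median was 0.01. The 1 member at an unadjusted p under 0.05 was Cox6a2 (-0.87 ± 0.25, adjusted p = 0.185), named after its value was seen.

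**Figure D5:**
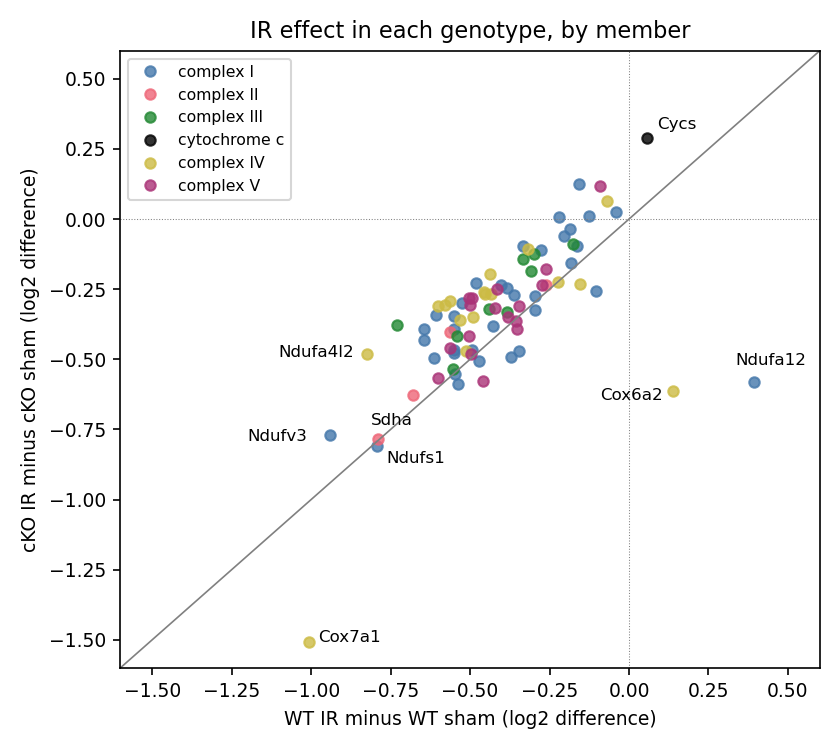
Log2 difference of IR against sham in cKO (vertical) against wild type (horizontal) for the 84 members, colored by complex, with the line of equal difference. In 75 members both values are below 0, 69 members lie above the line under the deposited scaling (32 on the TPM scale), and Ndufa12 and Cox6a2 stand apart.

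In the absence of injury, cKO sham against WT sham gave 0 called members by limma, where 0.847% of all tested genes were called higher and 0.256% lower. At an unadjusted p under 0.05, 0 members passed, and voom called 0. The differences were small and mostly of 1 sign: 78 of 84 were below 0, with a median of -0.10, but on the TPM scale 44 were, with a median of -0.01. Relative to the median of all genes the members stood at -0.10 on both scales, with 78 below it. Atp5o had the smallest adjusted p, 0.632, with a difference of -0.17 ± 0.11. The summed level of the 13 proteins encoded in mitochondrial DNA was 81315 to 88905 FPKM in WT sham and 64747 to 68195 FPKM in cKO sham, and mitochondrial genes took 9.82% to 10.4% and 8.11% to 8.47% of the reads. Its part in the members' values was not tested.

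The partner genes of the pathway did not all follow the subunits. Of the 13 mitochondrially encoded subunits, 2 were called lower in WT IR (mt-Nd2, -0.55 ± 0.18, and mt-Nd4, -0.43 ± 0.15) and 0 in cKO IR. These shares, 15.4% and 0%, were under the 19.5% and 23.1% of all tested genes called lower. The summed level of the 13 fell by 24.1% in wild type and by 5.6% in cKO. The members amounted to 12.0 FPKM per 100 FPKM of mitochondrially encoded proteins for WT sham and 11.6 for WT IR, and to 14.1 for cKO sham and 11.9 for cKO IR (means, n = 3). On the TPM scale 1 of the 13 was called lower in wild type and 1 called higher in cKO, and without WT IR 2, 7 were called lower in wild type. None of the genes of the 7 lists of partners was called in either comparison of genotypes or in the interaction.

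Of 48 tested assembly factors, which build the complexes without staying in them, 3 were called higher and 5 lower in wild type and 4 and 6 in cKO, with medians of -0.06 and -0.05. Both shares were under those of all tested genes. On the TPM scale 14 (29.2%) were higher and 3 lower in wild type, with a median of 0.13, where 35.2% of all tested genes were higher and their median was 0.20, and in cKO it was 5 and 5. Leaving out WT IR 2 gave 2 higher and 14 lower in wild type. Acad9, needed for complex I, fell (-0.64 and -0.77), as did Cox15, which makes the heme of complex IV (-0.36 and -0.50; on the TPM scale -0.17, not called, and -0.48), while Coa3, which acts early in complex IV assembly, rose (0.45 and 0.59). The mitochondrial ribosomal proteins, which translate the mitochondrially encoded subunits, were seldom called lower. Of 77 tested, 13 (16.9%) were called higher and 2 lower in wild type and 22 (28.6%) and 1 in cKO, so that the share called higher was below the 22.6% of all tested genes in wild type and near the 27.8% in cKO. On the TPM scale it was 39 (50.6%, against 35.2% of all tested genes) and 0 lower in wild type, and 29 (37.7%, against 28.6%) and 2 lower in cKO. Without WT IR 2, 10 were called higher and 6 lower in wild type, with a median of -0.02. Mrpl33 rose by 1.04 and 1.41 on the log2 scale, Mrpl52 by 0.98 and 1.04 and Mrps18b by 0.92 and 0.89. Of 14 import and carrier genes, 5 were called higher and 1 lower in wild type and 3 and 2 in cKO (6 and 0, and 5 and 2, on the TPM scale; 3 and 4 in wild type without WT IR 2), and Tomm40, the channel of the outer membrane, rose by 0.55 and 0.58. The shares of the 14 called higher as deposited were 35.7% and 21.4%, against 22.6% and 27.8% of all tested genes.

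Of 20 regulators of mitochondrial biogenesis, 12 were called lower and 1 higher in wild type and 8 and 2 in cKO, and on the TPM scale 7 lower and 3 higher in wild type and 8 and 3 in cKO. The shares called lower as deposited were 60% and 40%, against 19.5% and 23.1% of all tested genes. Ppargc1a, a coactivator of respiratory genes, fell from 12.7, 13.1 and 13.9 FPKM to 7.22, 10.5 and 6.65 FPKM in wild type (-0.66 ± 0.14, adjusted p = 0.00406). In cKO it fell from 16.5, 13.7 and 15.7 FPKM to 5.57, 6.05 and 7.01 FPKM (-1.18 ± 0.14, adjusted p = 9e-05). Its partner Esrra fell by 0.50 and by 0.81, and Tfam, which packages mitochondrial DNA and starts its transcription, fell by 0.28 and by 0.32, but on the TPM scale neither was called in wild type (adjusted p = 0.0564 and 0.293). Esrrb had differences of -1.30 and -1.37, called in both genotypes. Pprc1, a relative of Ppargc1a, rose by 1.32 and 1.29. Nrf1 (-0.01 and 0.13) and Gabpa (-0.07 and -0.03), whose motifs are described above, were not called.

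Coenzyme Q is also fed by routes other than complexes I and II. Of 8 such electron donors, 5 were called lower and 0 higher in wild type and 2 lower and 1 higher in cKO (3 and 0, and 2 and 1, on the TPM scale). The shares called lower as deposited were 62.5% and 25%, where 19.5% and 23.1% of all tested genes were. The share in cKO was thus near that of all genes. Prodh, of proline oxidation, fell by 1.15 and by 0.98, and Etfa, an electron carrier of fatty acid oxidation, by 0.84 and by 0.60. Of 13 genes of coenzyme Q synthesis, 4 were called lower and 1 higher in wild type and 2 lower and 1 higher in cKO (on the TPM scale 4 and 4, and 3 and 1), with Coq8a falling by 1.39 and by 1.36. The shares of the 13 called lower as deposited were 30.8% and 15.4%. The share in cKO was under that of all tested genes.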

How the data were processed

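RNA of 12 mouse kidney libraries, 3 per group, was analysed from 1 deposited table of FPKM, which the authors scaled to gene length and library size. Per the submitters' processing notes HISAT2 2.2.1 was used and the builds mm8 and mm9 are named; no source used here gives the counting program or the annotation. Multiplied by gene length, the values of a library were whole multiples of 1 unit (largest distance from a whole number 1.34e-09), which gave the reads, 13187531 to 15962303 per library. The depth by which the deposited FPKM were scaled was 0.933 to 0.977 times this sum in WT sham, 1.01 to 1.13 in WT IR, 0.982 to 0.990 in cKO sham and 1.00 to 1.07 in cKO IR, and how it was set is not given in the sources used here; 3 reads of a model of 1 kb equal 0.176 to 0.226 FPKM. Such limits cover counting error only. Groups were taken from the labels. Genes whose mean reached 1 FPKM were tested on log2(FPKM + 1), a scale that understates changes of low genes, in limma 3.58.1 (R 4.3.3) with 1 mean per group and a variance trend, two-sided, for 5 comparisons, and called at a Benjamini-Hochberg adjusted p under 0.05 over all 12868 genes. The fit was tested on simulated data, in which far fewer genes changed than were called here and no library stood apart. Intervals are at 95%. The members and lists were chosen with earlier results of these data known. Values per library or the range of a group are given for Ndufs1 and Sdha, the 2 largest differences per complex and genotype, the 2 most abundant members per complex, the smallest p-values between genotypes, and isoforms; other genes by count, with up to 3 examples per list. Cyc1, Atp5g2, Cox5b, Ndufa12, Ndufb9, Ppargc1a, Esrra, Tfam, Nrf1 and Gabpa were named outside this rule, after their values were seen. One member that the rule names is not reported here. Sequences are from RefSeq (GRCm38.p6), another build than the gene coordinates of the table may use. The alternatives were another pseudocount (0.1), no filter and a filter at 5 FPKM, 3 rescalings, voom on the reads, the replicate block, fits of 2 groups alone and leaving out each library.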

Additional observations from a re-analysis of the deposited data

How the results depend on the processing

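The median difference of the members stayed below 0 in both IR comparisons under all 21 alternatives, between -0.58 and -0.23 in wild type and between -0.42 and -0.22 in cKO. The number of members called lower in wild type, 41, was 25 when only the 2 groups compared were fitted, and 21 to 64 when 1 library was left out: 64 without WT IR 2, 21 without WT IR 3, 23 without WT IR 1, 22 without WT sham 2 and 27 without WT sham 3. Of all 12868 tested genes, 2514 were called lower in the main fit and 2101 in the fit of 2 groups. Without these libraries, in the same order, it was 2914, 1954, 1958, 2023 and 1934 genes. In cKO, 24 became 15 without a filter on low values (31723 genes tested), 31 in the fit of 2 groups and 15 to 36 with 1 library left out: 15 without cKO IR 3, 16 without cKO sham 3 and 36 without WT IR 2. Of all tested genes, 2967 were called lower in the main fit, 3301 of 31723 without the filter and 2853 in the fit of 2 groups. Without these libraries, in the same order, it was 2753, 2577 and 3156 genes. The cause was not tested. The count called higher, 0, was 1 (Cycs) on the TPM scale in both genotypes, and in cKO also on both other rescalings and without WT IR 2 or without cKO IR 3 (range 0 to 1 with 1 library left out).

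Scaling to TPM gave 29 members called lower in wild type and 33 in cKO, where 12.6% and 21.2% of all tested genes were. Scaling to the sum of reads gave 4160 genes higher and 1845 lower in wild type, with 30 members lower, and scaling without mitochondrial genes gave 3950 and 1959 genes, with 35 members lower. The median interaction of the members, 0.12, ran from -0.04 to 0.25 over all alternatives, and 0 members were called in it or between genotypes in any.

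Libraries with the same replicate number mostly did not deviate together (correlations of -0.186 to 0.401 over 18 pairs, with 4 of 12 libraries closest to their own number). The highest correlation, 0.401, was that of WT IR 3 and cKO IR 3. These libraries were the lowest of their groups in 78 and 68 members. With the replicate number as a block, 40 members were called lower in wild type and 24 in cKO. Of all 12868 tested genes, 2450 and 2893 were. Depth limits the rarest members: 80 of 84 had at least 100 reads in every library, and Cox6a2 had as few as 3.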
